A study of Mus musculus with 4 samples.

Results

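The growth hormone receptor, its kinase and transcription factors, and a small set of hormone-responsive genes were examined in fatty liver of aP2-SREBP-1c mice. These comprised 9 genes, namely Ghr, Jak2, Stat5a, Stat5b, Socs2, Cish, Bcl6, Onecut1 and Serpina4-ps1, of 19938 genes measured with a single symbol. They were listed by name, and Socs2, Cish and Serpina4-ps1 were selected on their high values in mice 1 and 4 of these same arrays. The high values of these 3 genes in mice 1 and 4 are therefore a description and carry no weight as evidence. The other 6 genes were listed with earlier results of these arrays known.

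Liver RNA came from 4 male mice aged 24 weeks that carry transcriptionally active human SREBP-1c under the adipocyte promoter aP2 on a C57Bl6 background and ate regular chow freely. The animals are lipodystrophic and have a fatty liver, and per the methods the transgene is active in fat and not in liver. They were killed with CO2 at the same morning hour. One array (n = 1) was hybridized per mouse with RNA of whole liver pieces, in which fewer cells of a type and less RNA per cell cannot be told apart. All 4 mice belong to 1 group, and C57Bl6 and alb-SREBP-1c livers were not analysed here. Values are therefore compared between mice, without p-values.

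In liver, growth hormone binds its receptor Ghr, which activates the tyrosine kinase JAK2. JAK2 phosphorylates STAT5A and STAT5B, which enter the nucleus and bind DNA at GAS elements. The pituitary releases the hormone in pulses in male rodents, and hepatic STAT5 activity follows the pulses. Among the first genes to respond are Socs2 and Cish, whose products bind to activated receptors and dampen the signal. In rodent liver, growth hormone is also known to lower Bcl6, a repressor that competes with STAT5 for its sites, and to raise Onecut1, which encodes the transcription factor HNF6. Serpina4-ps1 is annotated as a transcribed pseudogene of the serpin family.

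The start of Cish and both annotated starts of Bcl6 are shown because they hold matches to the GAS element. Onecut1 lay further apart between mice than these genes, held no match and is not shown. RefSeq promoter windows (GRCm38.p6) of 300 bases, from 250 before to 50 after a gene start, were given for 7 of the 9 genes and 11 starts. The letters TTCNNNGAA, which read the same on both strands and can also be bound by BCL6, were found in windows of Cish and Bcl6, that is, in 2 of these 7 genes. Of all genes with a window, 9.55% held a match. Of windows taken singly, 8.30% of 32851 did. The windows of Ghr, Jak2, Stat5a, Stat5b and Onecut1 did not hold these letters. The core letters bound by HNF6, ATCGAT, occurred in windows of 0 of the 7 genes and in 1.02% of all genes. The sequences run 5′ to 3′ on the strand of the gene, with each GAS match in capitals.
Cish, chr9:107296409-107296708, plus strand: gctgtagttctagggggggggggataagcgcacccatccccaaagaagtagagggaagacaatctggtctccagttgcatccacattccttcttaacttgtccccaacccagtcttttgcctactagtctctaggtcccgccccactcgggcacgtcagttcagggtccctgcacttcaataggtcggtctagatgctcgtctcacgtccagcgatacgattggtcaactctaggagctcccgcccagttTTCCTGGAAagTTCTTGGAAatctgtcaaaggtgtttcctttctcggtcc
Bcl6, chr16:23988803-23989102, minus strand: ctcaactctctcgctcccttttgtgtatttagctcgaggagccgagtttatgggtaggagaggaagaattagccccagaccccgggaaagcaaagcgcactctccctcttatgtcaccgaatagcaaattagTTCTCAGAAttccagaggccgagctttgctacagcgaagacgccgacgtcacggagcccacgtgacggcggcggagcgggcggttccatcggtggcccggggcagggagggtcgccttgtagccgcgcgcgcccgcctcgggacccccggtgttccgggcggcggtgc
Bcl6, chr16:23981234-23981533, minus strand: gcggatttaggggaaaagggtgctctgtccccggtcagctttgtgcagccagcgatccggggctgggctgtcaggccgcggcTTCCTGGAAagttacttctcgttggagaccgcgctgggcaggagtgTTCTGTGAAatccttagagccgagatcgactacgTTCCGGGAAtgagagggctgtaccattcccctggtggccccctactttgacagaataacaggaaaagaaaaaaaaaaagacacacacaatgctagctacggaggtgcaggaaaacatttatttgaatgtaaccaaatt
Counted from base 1 of the window, the 2 matches of Cish began at bases 251 and 262, the first of them at the annotated gene start. The upstream window of Bcl6 held 1 match at base 133, and the window of its second start held 3 matches at bases 83, 129 and 163. A match describes letters only, and binding was not measured.

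Values are log2 expression values after RMA, so that a difference of 1 is a doubling. A gene was taken as above background when it exceeded a limit in every mouse (5.33 to 5.52), set so that 95% of 1212 olfactory and vomeronasal receptor probe sets lay below it. All 9 genes passed, and so did 12265 genes in all. The lowest margin was that of Bcl6 in mouse 1, 0.29 above the limit. The array of mouse 1 was compressed relative to the others. Its median difference from the other mice was 0.13 for genes in the lowest of 10 expression classes and -0.23 for those in the highest. Of all genes whose mice spanned more than 1.5-fold, 88.4% had an extreme value in mouse 1. Hepatocyte markers such as Alb, Apoa1 and Ttr were all above background (13 of 13 measured genes), with a largest range of 0.37.

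Of the receptor, the kinase and the STAT5 genes, Jak2 and Stat5a stayed close together between mice, while Ghr and Stat5b lay above the median range of all genes (0.34 on the log2 scale). Ghr (probe set 10427402, chromosome 15, 3317755 to 3583352) was measured at 10.97, 11.39, 11.42 and 11.25 in mice 1 to 4, a mean of 11.26 ± 0.21 (SD, n = 4). Mouse 1 was lowest and the other 3 mice lay within 0.17 of each other. The range was 1.37-fold, and 29.7% of the 1000 genes nearest to Ghr in mean level had a larger one. After quantile normalization of the 4 arrays, the range of Ghr was 0.28 on the log2 scale instead of 0.45.
Jak2 (chromosome 19, 29251803 to 29313095), which encodes the kinase bound to the receptor, was measured at 7.02, 6.96, 7.06 and 7.04, a mean of 7.02 ± 0.04 (SD, n = 4). Its range of 1.07-fold was among the smallest on the arrays, at place 11920 of 12265 genes. Among genes of like level, 97.5% had a larger range.

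Stat5a and Stat5b encode closely related factors and lie next to each other on chromosome 11, with 346 bases between the annotated genes (Stat5b 100780731 to 100859004, Stat5a 100859351 to 100885169). Their values differed in spread. Stat5a was measured at 7.15, 7.18, 7.02 and 7.05 (7.10 ± 0.08, SD, n = 4), and 88.1% of genes of like level had a larger range than its 1.12-fold. Stat5b was measured at 7.81, 8.18, 8.46 and 8.02 (8.12 ± 0.28, SD, n = 4), lowest in mouse 1 and highest in mouse 3. Its range was 1.58-fold, and 10.9% of genes of like level had a larger one. This range depended on the arrays of mice 1 and 3, since it was 0.44 on the log2 scale without mouse 1 and 0.38 without mouse 3. It was 0.46 after quantile normalization, which is below 1.5-fold.

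**Figure D1:**
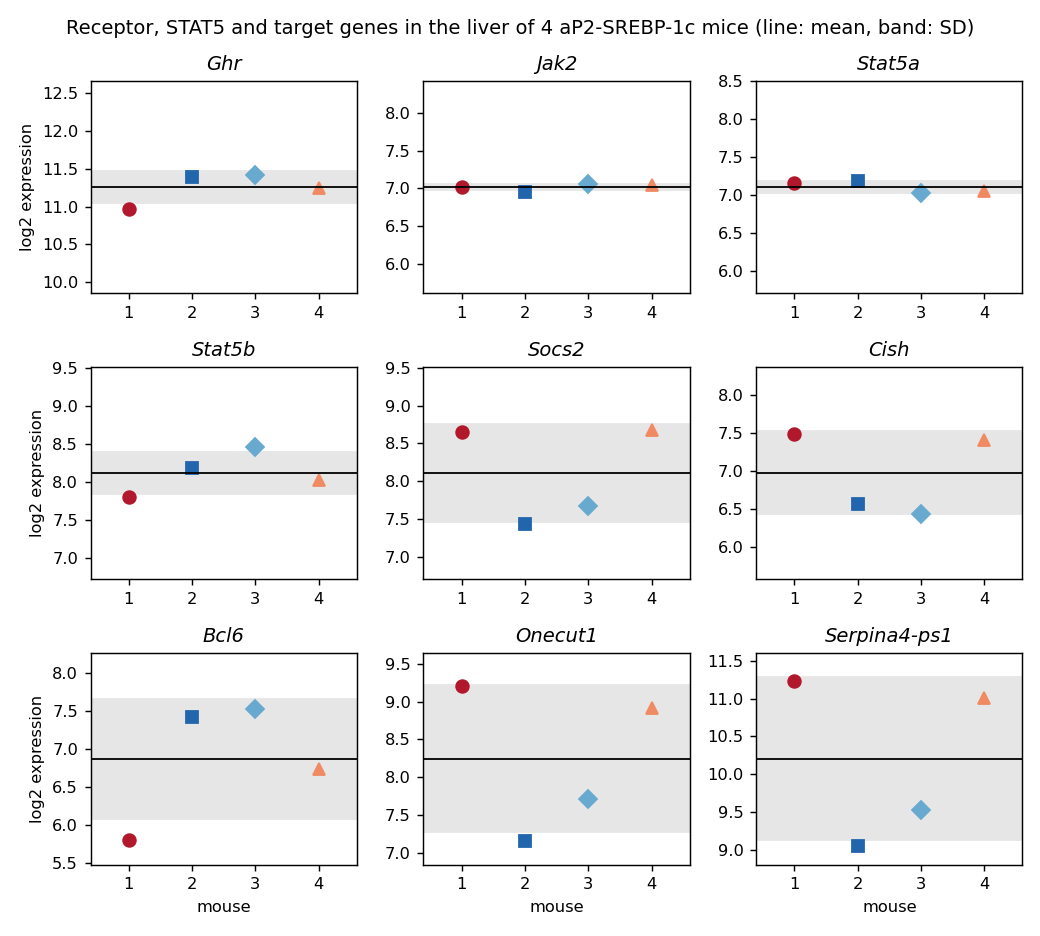
Log2 expression of the 9 genes by mouse (n = 4, aP2-SREBP-1c). Symbols stand for mice, lines for the mean and grey bands for ± SD, and all panels span the same number of log2 units. Jak2 and Stat5a stayed close to their mean, while Socs2, Cish, Onecut1 and Serpina4-ps1 were high in mice 1 and 4 and Bcl6 was lowest in mouse 1.

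The feedback genes Socs2 and Cish were both chosen by their high values in mice 1 and 4, so that their spread is given as a description. Socs2 (probe set 10394674, chromosome 10, 95383903 to 95417321), a ubiquitin ligase adaptor that restrains growth hormone signaling, was measured at 8.65, 7.44, 7.67 and 8.68 in mice 1 to 4 (8.11 ± 0.65, SD, n = 4). On the linear scale, mouse 2 reached 42.3% and mouse 3 reached 49.5% of the value of mouse 4. Mice 1 and 4 differed by 0.03, less than the median absolute difference of 0.20 between these mice over all genes above background. Mice 2 and 3 differed by 0.22, against a median of 0.11. The range of 2.36-fold stood at place 50 of 12265.
A second probe set of Socs2 (10372069) was dimmer and was measured at 7.14, 5.95, 6.17 and 6.55. It was also highest in mouse 1 and lowest in mouse 2 (2.28-fold range), whereas mouse 4 stood lower relative to mouse 1 than with the brighter probe set. Hence the close values of mice 1 and 4 depend on the probe set.
Cish (probe set 10588577, chromosome 9, 107296659 to 107302784), whose product binds to phosphorylated cytokine receptors at the sites used by STAT5, was measured at 7.49, 6.57, 6.44 and 7.40 (6.97 ± 0.55, SD, n = 4). Mouse 3 was lowest, at 48.2% of mouse 1 on the linear scale, and mouse 2 reached 52.8%. Mice 1 and 4 differed by 0.09 and mice 2 and 3 by 0.13. The range was 2.08-fold with all mice and 1.95-fold without mouse 1. The lowest value of Cish lay 1.09 above the background limit of its array.

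The regulators Onecut1 and Bcl6 were among the genes with the widest spread on the arrays. Onecut1 was highest and Bcl6 lowest in mouse 1. Onecut1 (chromosome 9, 74861921 to 74889648), a liver and pancreas transcription factor, was measured at 9.20, 7.16, 7.71 and 8.92 in mice 1 to 4 (8.25 ± 0.97, SD, n = 4). Mouse 2 reached 24.2% and mouse 3 reached 35.6% of the linear value of mouse 1, while mouse 4 reached 82.3%. Its range of 4.12-fold stood at place 11 of 12265 and was 3.40-fold without mouse 1. Its paralog Onecut2 was measured at 8.50, 8.59, 8.63 and 8.77, a range of 0.26 on the log2 scale, with its lowest value in mouse 1.
Bcl6 (chromosome 16, 23965050 to 23988866) was measured at 5.81, 7.42, 7.53 and 6.74 (6.87 ± 0.79, SD, n = 4). Mouse 1 reached 30.3% of the linear value of mouse 3, mouse 4 reached 57.8% and mouse 2 reached 92.8%. Mice 2 and 3 differed by 0.11, as did the median of this pair over all genes. The range of 3.30-fold stood at place 19, and without mouse 1 it was 1.73-fold. The value of mouse 1 was close to background, as given above.

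Serpina4-ps1 (probe set 10398011, chromosome 12, 104077959 to 104086920) was measured at 11.24, 9.06, 9.53 and 11.01 (10.21 ± 1.08, SD, n = 4). Mice 2 and 3 reached 22.0% and 30.6% of the linear value of mouse 1, and mouse 4 reached 85.2%. The range of 4.54-fold was the 8th widest on the arrays, and 0.0% of the 1000 genes of like level had a larger one. The gene lies in a cluster of serpin genes, of which 13 of 22 listed genes were measured singly and 7 were above background. Of these 7 genes above background, Serpina12 and Serpina3n spanned more than 1.5-fold between mice, where the share of all genes was 12.9%. Serpina12, which encodes the adipokine vaspin, was measured at 7.04, 8.33, 8.25 and 7.93. Serpina3n, an acute phase serpin, was measured at 10.82, 11.41, 11.49 and 11.16. Both were lowest in mouse 1, where Serpina4-ps1 was highest. Of the 7 genes, 3 had mice 1 and 4 above mice 2 and 3, as Serpina4-ps1 had, and 3 had the reverse order. These orders were seen in 15.3% and 29.0% of all genes. Serpina1c, an antitrypsin gene, stayed within a range of 0.06 on the log2 scale (13.37 ± 0.03, SD, n = 4).

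Among the 9 genes, 6 spanned more than 1.5-fold from the lowest to the highest mouse, against 12.9% of all genes above background (1584 of 12265). Of the 6 genes that were not selected on high values in mice 1 and 4, this applied to 3, namely Stat5b, Bcl6 and Onecut1. Stat5b (1.58-fold) lay just inside this limit and Ghr (1.37-fold) just outside it. More than 2-fold was seen in 5 of the 9 genes, against 1.13% of all genes. Without mouse 1, 5 genes kept more than 1.5-fold (Socs2, Cish, Bcl6, Onecut1 and Serpina4-ps1), against 2.71% of all genes. The median range of the 9 genes was 1.05 on the log2 scale, beside 0.34 for all genes above background. Since 3 of the genes were selected on their spread and the list was drawn up with the values known, these counts describe the list and nothing more.

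**Figure D2:**
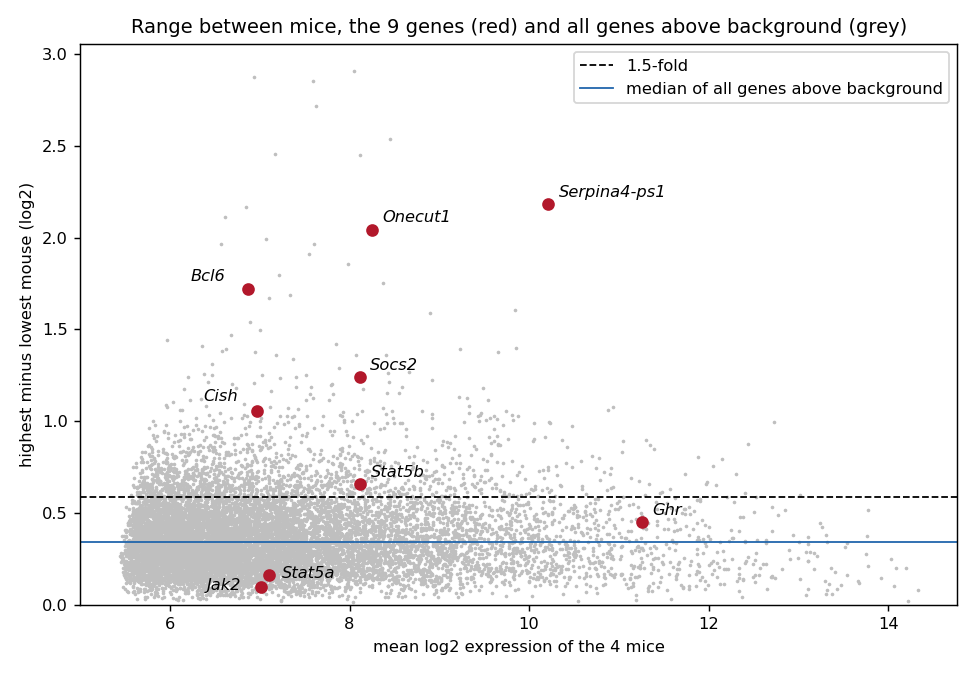
Highest minus lowest mouse on the log2 scale (y axis) against the mean log2 expression of the 4 mice (x axis) for the 9 genes (red) and all 12265 genes above background (grey points). Serpina4-ps1, Onecut1 and Bcl6 lay at the upper edge of the points, while Jak2 and Stat5a lay below the median of 0.34.

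The order of the mice was shared by several of the genes. Socs2, Cish, Onecut1 and Serpina4-ps1 had both mouse 1 and mouse 4 above both mouse 2 and mouse 3. This order was seen in 15.3% of all genes above background, but Socs2, Cish and Serpina4-ps1 were selected for it, so that the share says nothing about them. The reverse order, with mice 1 and 4 both below mice 2 and 3, was seen in Bcl6, Ghr and Stat5b and in 29.0% of all genes. The mice carry no label that sets 1 and 4 apart from 2 and 3, and they are not separate groups of the study.
Likeness between 2 genes was measured as the root mean square difference of their mean-centred log2 values over the 4 mice. Onecut1 was the nearest of all genes to Serpina4-ps1 (0.11), and Serpina4-ps1 was the second nearest to Onecut1. Cish was the 6th nearest gene to Socs2 (0.16), and Socs2 was at place 16 for Cish, which restates that both were selected for the same high values. The nearness of Serpina4-ps1 is likewise a description. For the mirror image of Socs2, Bcl6 was at place 421 (0.36).

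The genes nearest to those with high values in mice 1 and 4 included several pancreatic enzymes. Nearest to Socs2 were Acmsd (0.02), an enzyme of tryptophan breakdown measured at 7.79, 6.56, 6.79 and 7.77, Cela1 (0.12) and Sycn (0.12). Cela1 encodes an elastase and Sycn a zymogen granule protein. Nearest to Cish were Sycn (0.04), the microRNA gene Mir505 (0.04) and Baiap2l1 (0.09). Nearest to Onecut1 was Try5 (0.03), a trypsin gene measured at 7.99, 5.99, 6.57 and 7.75. Serpina4-ps1 (0.11) and the elastase gene Cela3b (0.12) followed. For Serpina4-ps1, Try5 (0.13) and the colipase gene Clps (0.13) came after Onecut1.
The genes nearest to Bcl6 were of another kind. They comprised BC023105 (0.03), Zfp991 (0.03) and Orm2 (0.05), an acute phase protein gene with a range of 1.75 on the log2 scale that was lowest in mouse 1 (7.25). Nearest to the mirror image of Socs2 were Dpt (0.15), Mmp12 (0.17) and Irf7 (0.18), and Dpt, a matrix protein gene, was measured at 5.94, 7.41, 7.34 and 6.04. For Ghr, Bud23, Tram2 and Sirt2 all lay within 0.01.

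Transcripts of pancreatic acinar cells moved with the order of the mice, and their part in the values of Socs2, Cish, Onecut1 and Serpina4-ps1 was not tested. Of 19 measured acinar markers, 14 were above background, with a median range of 1.94 on the log2 scale. Of these 14 markers, 13 spanned more than 1.5-fold, against 12.9% of all genes. The 13 genes were higher in both mouse 1 and mouse 4 than in both mouse 2 and mouse 3, as were 15.3% of all genes. As the acinar list was drawn up with earlier results of these arrays known, these counts are a description. The sum of the 19 linear values was 4390, 1207, 1397 and 3732 in mice 1 to 4. Ctrb1 (chymotrypsinogen) had a range of 2.91, Ctrl 2.85 and Cpa1 2.72, wider than any of the 9 genes. Ctrc was an exception and stayed within 0.18.
Islet markers were less marked, since 7 of 13 measured genes were above background and 1, Ins2, spanned more than 1.5-fold (6.16, 5.46, 5.60 and 6.07). This 1 of 7 is near the 12.9% of all genes. The sums of all 13 islet genes were 703, 656, 573 and 665. As Onecut1 is also a gene of ducts, duct markers were listed after its values had been seen. Krt19 was measured at 5.55, 6.13, 5.95 and 5.66 and Sox9 at 7.08, 7.04, 7.40 and 7.07. Among the duct markers not above background, Cftr and Cldn7 had their highest value in mouse 1. Muc1 was highest in mouse 2 and Epcam in mice 2 and 3 (4.87 each). Of 7 measured duct markers, 3 were above background and 0 of these 3 spanned more than 1.5-fold, near the 12.9% of all genes. The part of duct cells in the values of Onecut1 was not tested. Lymphocytes also express Cish, Socs2 and Stat5a. Of 13 measured lymphocyte markers, 4 were above background and the sums were 517, 536, 528 and 525, with Cd3e at 6.47, 6.23, 6.45 and 6.52.

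**Figure D3:**
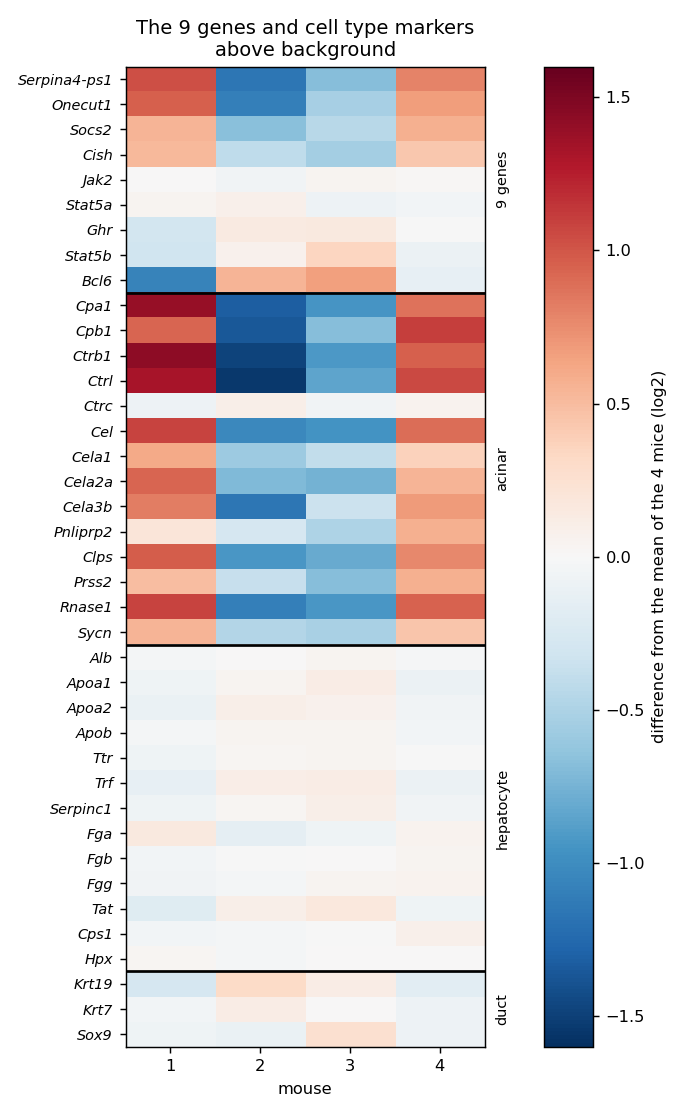
Difference from the mean of the 4 mice (log2, colour) for the 9 genes and for acinar, hepatocyte and duct markers above background, with mice as columns. Acinar markers other than Ctrc and Socs2, Cish, Onecut1 and Serpina4-ps1 were high in mice 1 and 4, hepatocyte markers changed by at most 0.37 between mice, and Bcl6 was lowest in mouse 1.

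Markers of other liver cells were also counted. Of genes above background, 3 of 11 macrophage, 1 of 10 endothelial, 3 of 10 stellate cell and 2 of 7 adipocyte markers exceeded 1.5-fold. The share of all genes was 12.9%. In each of these lists 0 did so without mouse 1, where the share of all genes was 2.71%. Of the stellate cell markers, 8 of 10 were lower in mice 1 and 4 than in mice 2 and 3, as Bcl6 was. This order was also seen in 8 of 13 hepatocyte markers and in 29.0% of all genes. The linear values of the stellate cell markers summed to 3017, 4918, 5017 and 3937. Their part in the values of Bcl6 was not tested.

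Other genes of the pathway were listed by role. Of 10 listed hormone and receptor genes, 8 were measured, 5 were above background and 0 spanned more than 1.5-fold. The share of all genes above background was 12.9%, so that 0 of 5 is no result about this list. The transcript of growth hormone itself, Gh, was near background (5.75 ± 0.09, SD, n = 4), and the leptin receptor gene Lepr was not above it. Il6st, the shared receptor chain of interleukin 6 cytokines, was measured at 9.79 ± 0.11 (SD, n = 4).
Of the other Janus kinases and STAT genes, 5 of 6 measured genes were above background and 0 exceeded 1.5-fold. With 5 genes, this is likewise near the 12.9% of all genes. Jak1 was measured at 9.53 ± 0.18, Tyk2 at 6.87 ± 0.13 and Stat3, the main factor of interleukin 6 signaling, at 8.46 ± 0.12 (SD, n = 4 each). Stat6 was measured at 7.76 in mouse 1 and at 8.16 to 8.17 in the other mice.
Among the other SOCS genes, 0 spanned more than 1.5-fold, where the share of all genes was 12.9%. Socs1 was measured at 6.35, 6.52, 6.17 and 6.21, and Socs3, which is induced by interleukin 6 and growth hormone, at 6.65, 6.48, 6.38 and 6.59. Socs5 was measured at 7.21, 6.87, 6.77 and 7.02, with a range of 0.44 on the log2 scale. Together with phosphatases and adaptors of the receptor complex, 14 of 15 measured genes were above background. Pias1, a SUMO ligase that binds STAT proteins, was the 1 gene of these with more than 1.5-fold (6.68, 7.06, 7.02 and 7.31). This 1 of 14 is near the 12.9% of all genes. The phosphatase gene Ptpn2 was measured at 6.73, 6.32, 6.47 and 6.86 and Ptpn11, which encodes SHP2, at 7.96 ± 0.07 (SD, n = 4).

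Known STAT5 targets did not share 1 order. Of 14 measured targets, 13 were above background and 3 of these spanned more than 1.5-fold, where the share of all genes was 12.9%. Gadd45g, a growth arrest gene, was measured at 7.11, 6.11, 6.23 and 6.48 and the immediate early gene Egr1 at 6.89, 6.24, 6.26 and 6.41. Both were highest in mouse 1, with mouse 4 above mice 2 and 3. The third of them, Serpina3n, was lowest in mouse 1. Of the 13 targets, 6 had mice 1 and 4 above mice 2 and 3, and 4 had the reverse order. These orders were seen in 15.3% and 29.0% of all genes. The list was drawn up with earlier results known, so that these counts are a description. Igf1, the main endocrine target of growth hormone in liver, was measured at 11.32, 11.49, 11.51 and 11.43, a range of 0.19 on the log2 scale. Igfals was measured at 8.30, 8.24, 8.15 and 8.43. The median range of the list was 0.38, beside 0.34 for all genes. Without mouse 1, 0 of the 13 genes exceeded 1.5-fold, near the 2.71% of all genes.

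Genes with sex-biased expression in mouse liver depend on the pattern of growth hormone release. Of 15 measured male-biased genes, all 15 were above background and 1, Susd4, spanned more than 1.5-fold (6.19, 7.07, 7.01 and 6.58). The share of all genes was 12.9%. The median range of the male-biased genes was 0.29 on the log2 scale. The male-biased genes Cyp7b1 (10.09 ± 0.06), Elovl3 (12.70 ± 0.07) and Mup3 (13.36 ± 0.08, SD, n = 4 each) stayed close to their means. Of 16 measured female-biased genes, 8 were above background, with a median range of 0.50, which was 0.35 after quantile normalization. Of these 8 genes, 4 exceeded 1.5-fold, where the share of all genes was 12.9%. Cyp4a10, a fatty acid hydroxylase, was measured at 8.65, 9.50, 9.78 and 9.29 and Abcd2, a peroxisomal transporter, at 7.91, 8.61, 8.96 and 8.40. Fmo2 and Cyp4a14 were the others, and all 4 were lowest in mouse 1. Without mouse 1, 0 of the 8 genes exceeded 1.5-fold, which at 2.71% of all genes is no result about this list.
Among 13 measured transcription factors of hepatocytes, all above background, 3 spanned more than 1.5-fold, where the share of all genes was 12.9%. Cebpa was measured at 9.91, 9.18, 9.31 and 9.72, higher in mice 1 and 4 than in mice 2 and 3. Nr1i3, the receptor CAR, was measured at 7.45, 8.20, 8.17 and 7.78 and Prox1 at 8.05, 8.66, 8.67 and 8.42, both lower in mice 1 and 4 than in mice 2 and 3. Hnf4a was measured at 10.47 ± 0.20 and Nr3c1, the glucocorticoid receptor, at 8.00 ± 0.04 (SD, n = 4 each).

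**Figure D4:**
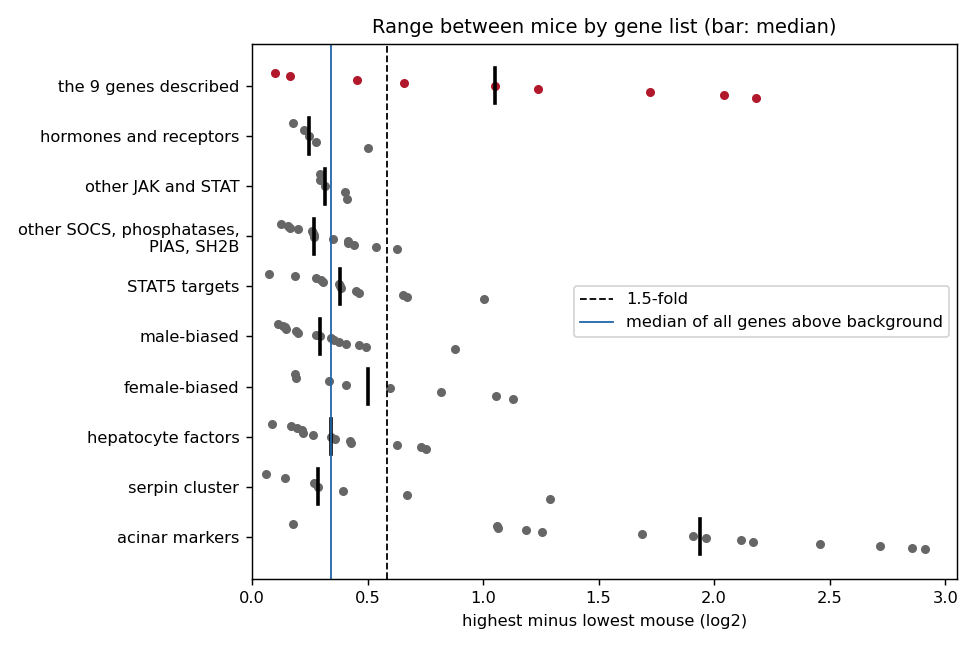
Highest minus lowest mouse on the log2 scale for each gene above background (points) by gene list, with the median of each list as a bar. The 9 genes described reached 2.18, the acinar markers 2.91, and the other pathway lists had medians between 0.25 and 0.50.

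In 5 of the 9 genes the spread stayed above 1.5-fold under every normalization tried and without any 1 mouse. Of these genes, Socs2, Cish and Serpina4-ps1 were selected for high values in the same pair of mice. Leaving out 1 mouse always kept a high and a low mouse, so that this step could not test their spread. The same holds for Onecut1, in which mice 1 and 4 each lay at least 2.3-fold above mice 2 and 3. For these genes and Onecut1 the ranges without each mouse are a description. Under median-centred arrays, quantile normalization, the mean of all probe sets and leaving out each mouse in turn, Socs2, Cish, Bcl6, Onecut1 and Serpina4-ps1 kept more than 1.5-fold, and Ghr, Jak2 and Stat5a stayed below it. After quantile normalization the ranges on the log2 scale were 1.36 for Socs2, 1.15 for Cish, 1.72 for Bcl6, 2.21 for Onecut1 and 2.32 for Serpina4-ps1. The range of Bcl6 was 0.79 without mouse 1 and 1.72 with all mice. That of Ghr was 0.17 without mouse 1 and 0.45 with all mice. Arrays of technical replicates were not analysed, and the number of mice limits the precision of every value.

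**Figure D5:**
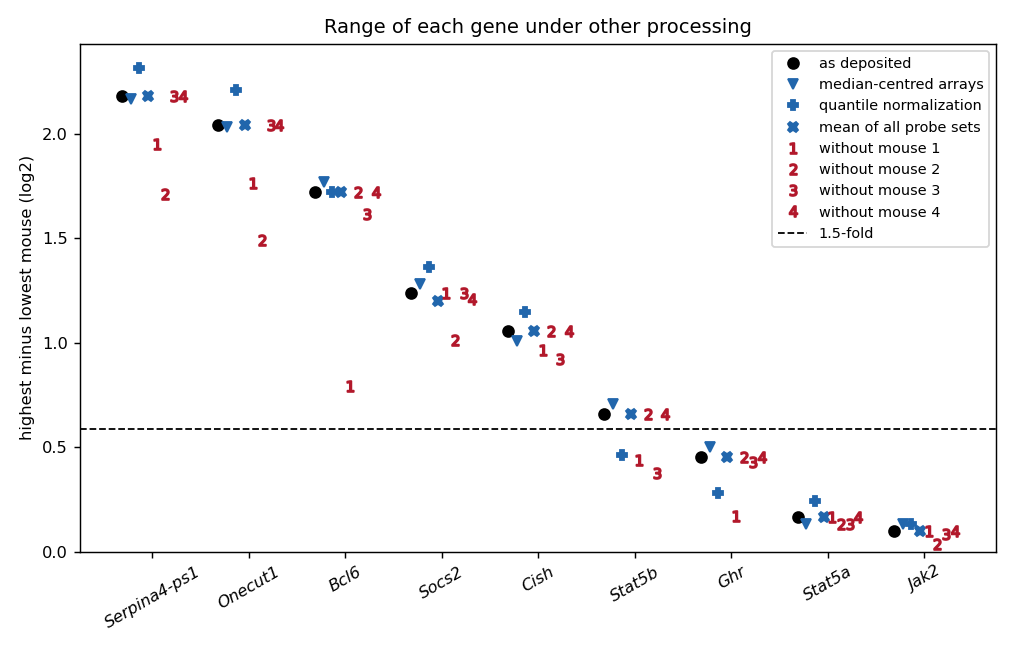
Highest minus lowest mouse on the log2 scale for each of the 9 genes as deposited (black), under other normalizations or the mean of all probe sets (blue) and without each mouse (red digits). The dashed line marks 1.5-fold, which Stat5b crossed after quantile normalization and without mouse 1 or mouse 3.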

How the data were processed

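Liver RNA of 4 mice was measured on Mouse Gene 1.0 ST arrays, 1 array per mouse. The deposited values are log2 expression values per probe set, which the authors computed by RMA (background correction, quantile normalization, median polish of probes), with Affymetrix Expression Console named in the submitters' notes. The set of arrays that entered RMA together, the software version and the genome build are not given in the sources used here. RMA compresses small signals, so that differences of dim genes are understated.

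Probe sets were named from the platform annotation with gene identifiers of RefSeq (GRCm38.p6), which also gave gene coordinates. Of 35556 probe sets, 21789 had 1 symbol and were used, representing 19938 genes. The other 1621 had several symbols and 12146 had none. Where probe sets shared a gene (999 genes), the brightest on average stood for it. The range between mice was called when above 1.5-fold. The 1000 genes nearest in mean level gave the scale for each gene. No test was made because all mice form 1 group, and the number of arrays limits the precision. Alternatives were median-centred arrays, quantile normalization, the mean of all probe sets, other limits on dim genes, a 2-fold limit and leaving out each mouse. The steps were tested on simulated arrays. Python 3.11.15, numpy 2.4.6, pandas 2.3.3 and matplotlib 3.10.9 were used.

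The 9 genes and all gene lists were chosen with earlier results of these data known, and the lists were compiled from general knowledge. Named genes comprised the 9 genes, the hormone, JAK-STAT and feedback lists, the genes of other lists with more than 1.5-fold (at most 5 per list), Igf1, Igfals, Serpina3n and Onecut2, and the nearest 3 genes in pattern. Others, such as Ctrc, Krt19, Sox9, Cd3e, Elovl3 and Hnf4a, were named as examples after their values had been seen. At most 25 values were identical between any pair of arrays.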

Additional observations from a re-analysis of the deposited data

Results flagged for a closer look

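In 2 of the 80 named genes examined, 1 mouse stood apart from the other 3, which lay close together. Genes named only as examples after their values had been seen were not among the 80. Of these, Sox9 (7.40 in mouse 3) and Elovl3 (12.60 in mouse 1) also met the criterion. Stat6 differed in mouse 1 from the mean of the other mice by -0.40 on the log2 scale, and Socs7 differed in mouse 4 by 0.24. The criterion is met by chance in about 1 of 20 groups of 4, and it was met by 5.75% of all genes above background. It was met by 0 of the 9 genes.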

How the results depend on the processing

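The number of genes that spanned more than 1.5-fold was 1584 as reported, 3749 without a limit on dim genes and 138 with a 2-fold limit. Leaving out 1 mouse gave 346 (without mouse 1) to 1295 (without mouse 2). Of 63 ranges of the 9 genes under alternatives, 60 stayed on their side of 1.5-fold. The other 3 were those of Stat5b, which was 0.46 on the log2 scale after quantile normalization and 0.38 to 0.66 when a mouse was omitted. Of 63 levels, 62 moved by less than the SD between mice, and Socs2 was at 7.28 with the mean of its probe sets. Some of these levels and ranges could not move, or could not move far enough to be counted. Median centring keeps the mean level by its construction. Leaving out 1 mouse always shifts the mean level by less than the SD between mice. The levels without each mouse therefore had to stay within this limit and could not test it. The mean of all probe sets could change only Socs2, since no other of the 9 genes had a second probe set. Socs2, Cish and Serpina4-ps1 were selected for high values in the same pair of mice. For these genes, and for Onecut1, which had the same order of mice, leaving out 1 mouse always kept a high and a low mouse and could not test the range. The median ranges of gene lists stayed within their error in 103 cases and moved beyond it in 33. This error was computed from the medians without each mouse, which are among the cases counted, so that both counts are a description. Signal over background limits Bcl6 in mouse 1. The cause was not tested. No paired analysis was possible because there is only 1 group of mice.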
